A study of Mus musculus with 8 samples.

Results

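Genes of sebaceous gland lipid were followed in back skin of hairless Hos:HR-1 females aged 10 weeks. For 1 week, collagen-fed mice ate the purified rodent diet AIN-93G with 2.0 g of collagen hydrolysate from fish scales, a mixture of collagen peptides, per 100 g. Control mice ate AIN-93G alone for the same time. RNA from whole frozen and powdered skin was measured on 1-colour arrays, 4 of collagen-fed and 4 of control mice, which the labels call biological replicates. The study held 16 mice, 8 per diet, at 4 to a cage. Which cage each array's mouse came from was not stated, so a cage shared within a diet cannot be told apart from the diet. The genes were a list of 8 with known parts in sebum lipid: Scd1, Scd3, Elovl3, Mc5r, Soat1, Cidea, Plin2 and Mgst1. The platform annotation named 1 of these genes alone on 10 of the 45037 probe sets tested, and these covered 7 of the 8 genes out of 18193 genes in all. None of them was named for Soat1, the enzyme that esterifies cholesterol for storage, so it was not analysed here. For each gene the probe set with the highest mean over the 8 arrays was used as the main one.

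Sebaceous glands empty onto the skin by holocrine secretion. Their cells, the sebocytes, fill with lipid droplets, break open and release sebum, which in mice holds wax esters and sterol esters. Desaturases and elongases shape the fatty acids, acyltransferases and reductases build the esters from them, and coat and fusion proteins hold the lipid in droplets until the cell bursts.

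The values are the authors' log2 values, and on this scale the arrays hardly differed. The arrays' medians lay between 8.1929 and 8.1932, and across them a typical (median) probe set spanned 7.36e-06. Ranges were very unequal, and how the values were made was not given in the sources used here. No difference was therefore read as a fold change. Values are therefore given as deviations from a gene's own 8-array mean, in millionths of a unit on the deposited scale, and differences also in within-diet standard deviations. No detection call was used, so signal over background is unknown, and levels were not compared between genes. Precision is limited by there being 4 arrays per diet. In whole skin, fewer sebocytes and less RNA per sebocyte cannot be told apart.

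None of the 7 measured genes was separated between the diets. Elovl3, Mc5r, Cidea, Plin2 and Mgst1 averaged slightly higher with collagen, Scd1 and Scd3 slightly lower, each by less than 1 within-diet SD. By limma over all probe sets, 0 of the 10 member probe sets passed adjusted p 0.05, against 0.0% of all probe sets, and 0 of the 10 had an unadjusted p under 0.05, against 3.55% of all. In 0 of the 10 did the diets fail to overlap, against 2.01% of all probe sets. The median difference of the 7 main probe sets was 0.377 SD, against 0.0517 SD over all genes. The ranges of the main probe sets were very unequal, on a scale whose making is unknown. On the values as deposited, 1 pair of 21, Elovl3 and Cidea, varied together from mouse to mouse past adjusted p 0.05 (exact permutation).

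Upstream sequence is shown for Scd3, whose main probe set had the widest range of the 7, and for Mgst1, whose main probe set had a narrow one. The table of RefSeq windows held 4 of the 8 genes. The bases are the 250 before the annotated start on the plus strand of GRCm38.p6, at chr19:44203038-44203287 for Scd3 and chr6:138140277-138140526 for Mgst1, with capitals for letters that match a searched motif.
Scd3: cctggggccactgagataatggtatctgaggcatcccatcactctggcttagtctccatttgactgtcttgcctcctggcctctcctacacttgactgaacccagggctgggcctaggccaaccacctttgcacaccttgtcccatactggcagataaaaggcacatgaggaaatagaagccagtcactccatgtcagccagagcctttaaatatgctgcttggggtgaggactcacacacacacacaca
Mgst1: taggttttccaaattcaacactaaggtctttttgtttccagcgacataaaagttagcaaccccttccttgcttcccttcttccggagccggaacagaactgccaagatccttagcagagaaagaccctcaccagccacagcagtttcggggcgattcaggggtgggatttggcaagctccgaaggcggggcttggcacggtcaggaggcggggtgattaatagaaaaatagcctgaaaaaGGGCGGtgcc
Both strands were searched for 4 short motifs. One was the promoter box spelled TATAAA, another the box spelled CCAAT, and the others were the GC box, spelled GGGCGG, and a nuclear receptor site, spelled AGGTCA. Mgst1 held 1 match, the GC box that begins 10 bases before the start, with no other motif overlapping it, and Scd3 held none. Over the same 250 bases of all 32851 windows, TATAAA was found in 12.4%, CCAAT in 33.8%, GGGCGG in 32.7% and AGGTCA in 14%. A match is a description of these letters and does not show binding.

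**Figure D1:**
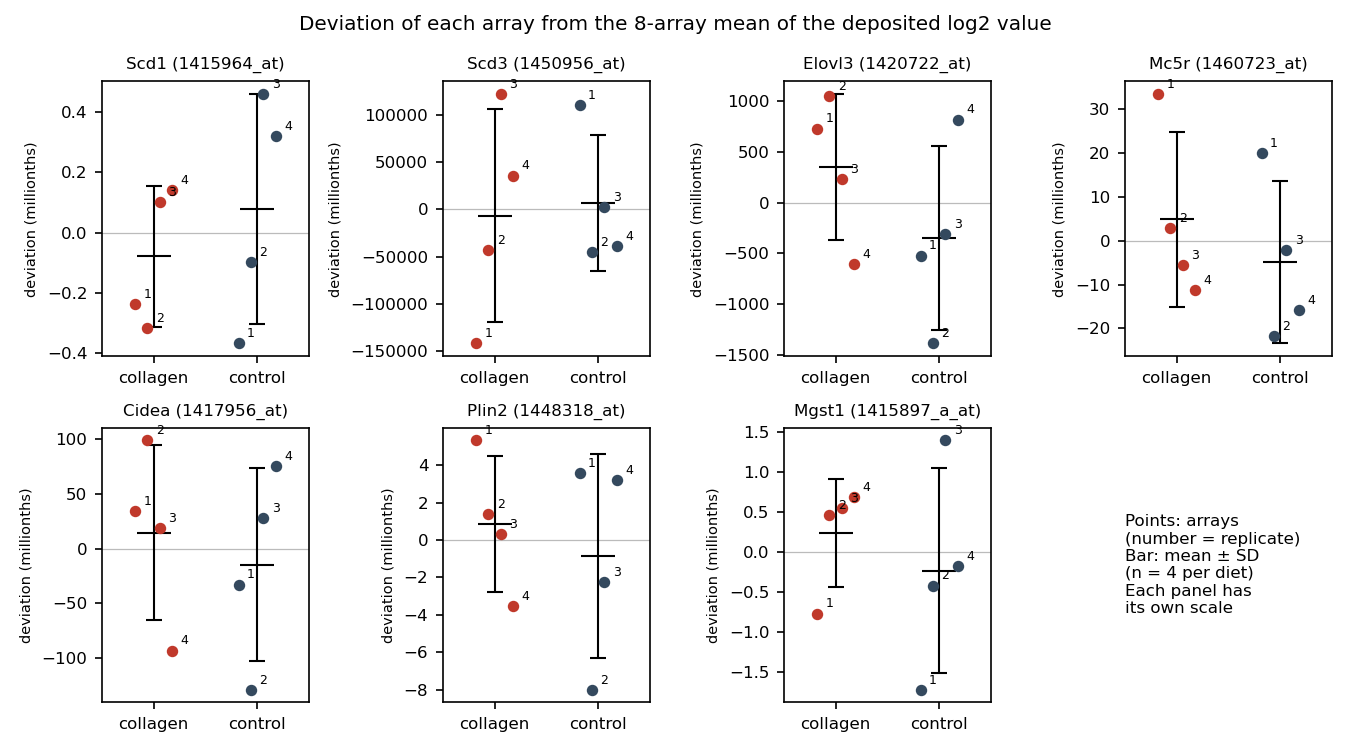
Deviation of each array from the gene's 8-array mean, in millionths of a unit on the deposited log2 scale, for the main probe set of 7 genes. Points are arrays numbered by replicate, bars are the mean ± SD of 4 arrays per diet, and each panel has its own scale. The diets overlap in all 7 panels, and the axis of Scd3 spans far more than that of Scd1.

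The desaturases place a double bond into fatty acids. Scd1 is the main one of mouse sebocytes, and mice without it have shrunken sebaceous glands. Its main probe set (1415964_at, mean 14.1516 in both diets) deviated by -0.239, -0.319, 0.101 and 0.141 millionths in collagen 1 to 4, against -0.369, -0.0988, 0.461 and 0.321 millionths in control 1 to 4. The lowest and the highest values both belonged to control mice, so the collagen arrays lay within the control range. The difference was -0.158 ± 0.287 millionths (moderated SE, n = 4 per diet; exact permutation p = 0.514; limma adjusted p = 1, as for all 10 member probe sets). The second Scd1 probe set (1415965_at) had a range of 939 millionths, against 0.83 millionths for the main one, and was highest in collagen 2 (546 millionths) and lowest in collagen 1 (-393 millionths). It differed by 165 ± 222 millionths (exact permutation p = 0.571), in the other direction. The probe sets of this gene did not vary together over the 8 arrays (r = 0.213, rho = 0.214, exact permutation p = 0.61 and 0.619), so the sign for Scd1 rests on the choice of probe set.

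Scd3 is a paralog of Scd1 expressed in skin, and its main probe set had the widest range among those of the members. In mouse assembly GRCm38.p6 the genes Scd3, Scd2, Scd4 and Scd1 lie in that order on chromosome 19 with no other protein-coding gene between them. The main Scd3 probe set (1450956_at) had values of 8.9708, 9.0693, 9.2343 and 9.1483 in collagen 1 to 4, against 9.2228, 9.0673, 9.1146 and 9.0739 in control 1 to 4. The lowest and the highest mouse were both fed collagen. Only 5 of all probe sets had a range wider than its 0.264. The diets differed by -0.0140 ± 0.0640 (SE; exact permutation p = 0.914), or -0.148 SD. The sign turned without collagen 1 (0.0310 ± 0.0555) and without control 1 (0.0204 ± 0.0644).

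The second Scd3 probe set (1423366_at) was lowest and highest in the same mice, collagen 1 and collagen 3. It read 8.1669, 8.1797, 8.2321 and 8.2050 in collagen 1 to 4, against 8.2273, 8.1841, 8.1975 and 8.1881 in control 1 to 4. Over the 8 arrays the probe sets had r = 0.986 and rho = 0.976 (exact permutation p = 4.96e-05 and 0.000397; adjusted p = 1.49e-04 for r over the 3 genes with a pair of probe sets), and r was 0.969 without collagen 3 and control 1. Both Scd3 probe sets thus followed the same pattern over the arrays, with ranges of 0.264 and 0.0652. Scd1 and Scd3, neighbours and paralogs, had r = 0.0929 and rho = 0.143 (exact permutation p = 0.821 and 0.752). Probe sequences were not used here, so reads of one paralog by a probe set of the other were not tested.

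Elovl3 lengthens fatty acids to very long chains in sebocytes, and mice without it have an altered sebum. It showed the largest difference of the 7 genes in SD units. Its probe set (1420722_at, means 11.6459 with collagen and 11.6452 in controls) deviated by 730, 1050, 232 and -606 millionths in collagen 1 to 4, against -522, -1390, -311 and 821 millionths in control 1 to 4. Of the collagen mice 3 lay above the control mean and collagen 4 below it, and control 4 lay above all collagen mice but collagen 2. The difference was 703 ± 558 millionths, or 0.855 SD (exact permutation p = 0.314). It stayed positive without each array in turn, between 3.56e-04 and 0.00109.

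Mc5r is the melanocortin receptor of sebocytes, and mice without it release less sebum lipid. Its probe set (1460723_at) deviated by 33.5, 2.89, -5.62 and -11.2 millionths in collagen 1 to 4, against 20, -21.7, -2.19 and -15.8 millionths in control 1 to 4. Collagen 1 and control 1 stood highest, in each diet above the other 3 mice. The difference was 9.82 ± 13.1 millionths, or 0.510 SD (exact permutation p = 0.486), and was 2.81e-07 on the deposited scale without collagen 1. The same arrays had the highest 3' minus 5' value of the Gapdh control probe sets, 0.290578 in collagen 1 and 0.29041 in control 1, against 0.289775 to 0.290112 in the other 6. Mc5r followed that value with r = 0.899 and rho = 0.667 over 8 arrays (exact permutation p = 0.00439 and 0.0831; adjusted p = 0.0307 and 0.337 over the 7 genes), and r was 0.421 without collagen 1 and control 1, so the relation rests on those arrays. The 3' minus 5' value of the Actb control probe sets did not single out the same arrays. It was 0.380051 in collagen 1 and collagen 2, 0.38005 in control 1 and 0.380049 in the rest. With the Gapdh value Scd1 had r = -0.665, Mgst1 -0.585 and Plin2 0.580 (exact permutation adjusted p = 0.235 for each). Without collagen 1 and control 1 these were -0.407, 0.321 and 0.016. Scd3, Elovl3 and Cidea lay between -0.0522 and 0.154 over all 8 arrays. The part of the Gapdh or Actb value in the members' values was not tested.

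The droplet genes followed. Cidea promotes the fusion of lipid droplets, and outside sebocytes it is a known gene of brown fat cells. Its probe set (1417956_at) deviated by 34.1, 98.8, 18.5 and -93.0 millionths in collagen 1 to 4, against -32.8, -129, 27.8 and 75.6 millionths in control 1 to 4. The order was led by collagen 2 and control 4 and ended with collagen 4 and control 2, so each diet held high and low mice. The difference was 29.2 ± 57.0 millionths, or 0.347 SD (exact permutation p = 0.629), and the sign turned without control 2, with -8.92e-06.

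Plin2 coats lipid droplets in many cell types. Its probe set (1448318_at) deviated by 5.32, 1.38, 0.326 and -3.52 millionths in collagen 1 to 4, against 3.58, -8.02, -2.24 and 3.20 millionths in control 1 to 4. Control 2 was again the lowest and collagen 4 the next. The difference was 1.75 ± 3.15 millionths, or 0.377 SD (exact permutation p = 0.614), and it too turned without control 2 (-6.36e-07).

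Mgst1, a membrane-bound glutathione transferase that reduces lipid peroxides, is often used as a sebocyte marker. Its main probe set (1415897_a_at) deviated by -0.769, 0.461, 0.551 and 0.681 millionths in collagen 1 to 4, against -1.72, -0.419, 1.39 and -0.179 millionths in control 1 to 4. Collagen 1 stood apart from the other collagen mice, and control 1 was the lowest of all. The difference was 0.462 ± 0.718 millionths, or 0.453 SD (exact permutation p = 0.514), and it turned without control 1 (-3.33e-08). The second probe set (1415898_at) had a range of 0.294 millionths and a difference of -0.107 ± 0.205 millionths, and the probe sets had r = -0.401 and rho = -0.262 (exact permutation p = 0.327 and 0.536).

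The second question was whether the genes varied together from mouse to mouse. Across the 21 pairs of main probe sets the Pearson r ran from -0.566 (Scd1 and Mc5r) to 0.932 (Elovl3 and Cidea), with a median of 0.0650 and 12 pairs above 0. The 7 genes did not rise and fall as a block. For comparison, the median r of each member with all other genes lay between -0.0149 and 0.0295. Within a diet there were only 4 arrays, so r was also taken with the diet means removed.

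Elovl3 and Cidea were the 1 pair of 21 past adjusted p 0.05. They had r = 0.932 and rho = 0.976 over 8 arrays (exact permutation p = 0.000149 and 0.000397; adjusted p = 0.00313 and 0.00833). The r was 0.961 with the diet means removed and 0.828 without collagen 2 and control 2, the arrays farthest from the Elovl3 median. With 1 array left out it stayed between 0.880 and 0.973. By r the pair missed the threshold without collagen 2 (r = 0.909, adjusted p = 0.0667). By rho it missed the threshold without collagen 1, collagen 2, collagen 4, control 1 or control 2 (rho = 0.964 and exact permutation adjusted p = 0.0583 in each). On the values as deposited, the RNA signals of both genes were thus highest in collagen 2 and lowest in control 2. After quantile normalization r was 0.707 (exact permutation adjusted p = 0.375), where Cidea held only 2 values.

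Plin2 joined this pair only loosely. It had r = 0.773 with Elovl3, 0.716 with Cidea and 0.734 with Mc5r (exact permutation p = 0.0239, 0.0459 and 0.0384; adjusted p = 0.233 for each), with rho of 0.619, 0.595 and 0.738. Without the pair of arrays farthest from the median of the other gene, r was 0.650 with Elovl3, -0.0678 with Cidea and 0.495 with Mc5r. The relation with Cidea therefore rests on collagen 4 and control 2. Scd1 and Mgst1 had r = 0.695 and rho = 0.738 (exact permutation p = 0.0555 and 0.0458; adjusted p = 0.233 and 0.321), and r was 0.244 without control 1 and control 3. Scd3 had no r beyond 0.325 in size with any other member.

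**Figure D2:**
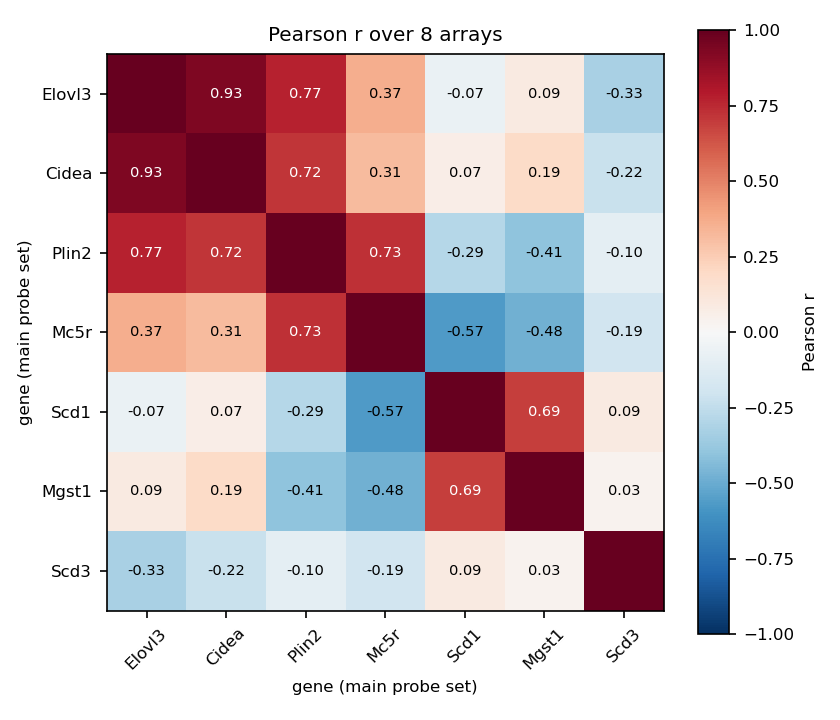
Pearson r over 8 arrays for each pair of the 7 genes, on a colour scale from -1 to 1, main probe sets only. Elovl3 and Cidea stand out at 0.932, Plin2 lies between 0.716 and 0.773 with Elovl3, Cidea and Mc5r, and Scd3 stays near 0 or below with all others.

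Genes of the wider lipid pathways were described by 6 lists, and 0 genes of these lists passed adjusted p 0.05 or had an unadjusted p under 0.05 (limma; 3.62% of all genes had the latter). The list of fatty acid synthesis, desaturation and elongation had 14 of 19 genes higher and 5 lower with collagen, with a median of 0.359 SD. Wax ester and glycerolipid synthesis had 9 of 13 higher (median 0.249 SD). Over all genes 52.9% were higher and the median was 0.0517 SD. Both lists had their lowest mean z value in control 2 (-0.58 and -0.86) and their highest in control 4 (0.55 and 0.52), and in both the range of collagen mice lay inside that of control mice.

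In the first list Acly, which makes the acetyl-CoA used for fatty acids, differed by 5.62 ± 3.32 millionths (SE; limma adjusted p = 1, as for each gene named from these lists) and Hsd17b12, a reductase of the elongation cycle, by 6.4 ± 4.57 millionths. Fasn, the fatty acid synthase, lay at -53.1 ± 64.8 millionths, Scd2, a further desaturase, at -86.3 ± 317 millionths and Elovl6, which elongates shorter chains, at 41.4 ± 62.4 millionths. In the second list Mogat2, a monoacylglycerol acyltransferase, differed by 2.01 ± 1.36 millionths and Lpin1, a phosphatidate phosphatase, by -83.1 ± 56.8 millionths. Far2, which reduces fatty acids to the alcohols of wax esters, differed by 29.9 ± 33.8 millionths and Dgat2, a triglyceride synthase, by -1.39 ± 2.91 millionths. The differences of Acly and Mogat2 were 1.15 and 1.01 within-diet SD, and the other 7 genes of these lists named here differed by less than 1 SD in size.

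The other lists were split nearly evenly. Cholesterol ester genes were higher in 4 of 8. Those with the smallest limma p were both lower, Nceh1, a cholesterol ester hydrolase, at -46.0 ± 45 millionths and Npc2, a sterol carrier of the lysosome, at -12.9 ± 14.1 millionths. Droplet coat and lipolysis genes were higher in 7 of 14. Those with the smallest limma p were Fitm1, which promotes droplet formation, at -1610 ± 859 millionths and Abhd5, a lipase activator, at 20.9 ± 17.0 millionths. Melanocortin genes were higher in 3 of 6, with the receptors Mc1r at 3.64 ± 1.94 millionths and Mc3r at 0.734 ± 0.609 millionths. Relatives of Mgst1 were higher in 2 of 5, with the prostaglandin synthase Ptges at 2.31 ± 1.74 millionths, Alox5ap, a partner of a leukotriene enzyme, at -209 ± 288 millionths and Mgst3 at -1.92 ± 14.5 millionths. Unadjusted p ran from 0.106 to 0.899 among the genes of these 6 lists named here (limma).

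**Figure D3:**
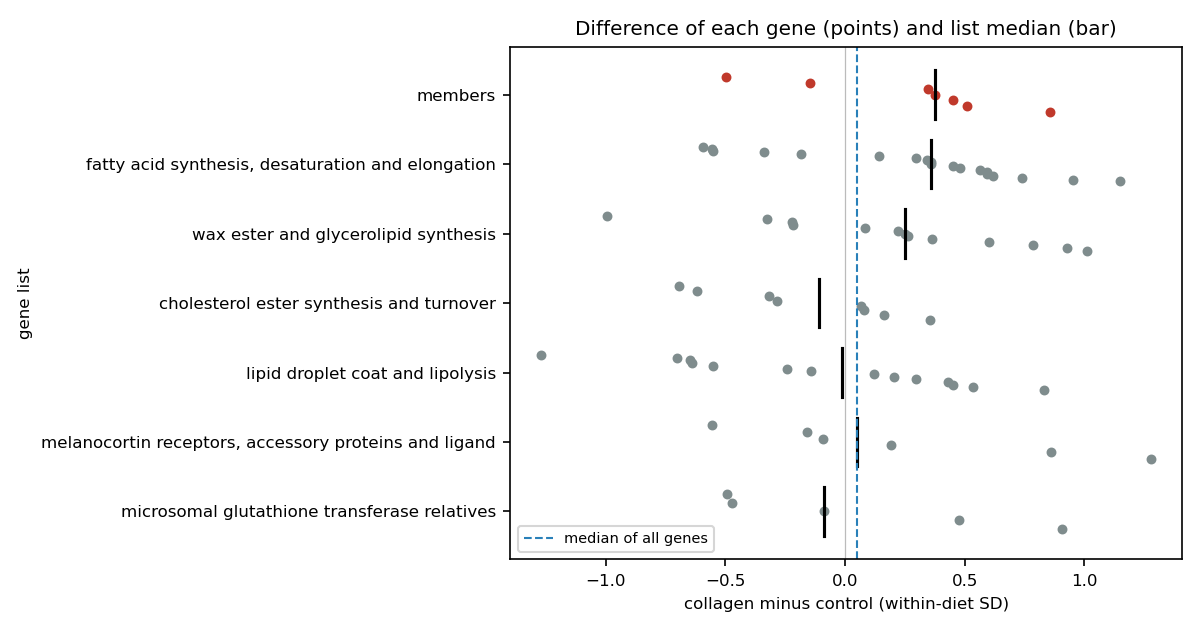
Collagen minus control in within-diet SD for the 7 genes and for each gene of 6 pathway lists (points), with list medians (bars) and the median of all genes, 0.0517 SD (dashed line). The 7 genes and the first pair of lists have medians of 0.377, 0.359 and 0.249 SD, and all lists straddle 0.

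Of the named list genes, Far2 and Hsd17b12 varied most closely with the Elovl3 and Cidea pair. Among 126 relations between the 7 genes and 18 named list genes, 2 passed adjusted p 0.05. Cidea and Far2 had r = 0.968 and rho = 0.905 (exact permutation p = 0.000223 and 0.00456; adjusted p = 0.0281 and 0.183), and r was 0.910 without the pair of arrays farthest from the Cidea median and 0.976 with the diet means removed. Elovl3 and Hsd17b12 had r = 0.949 and rho = 0.905 (exact permutation p = 0.000694 and 0.00456; adjusted p = 0.0438 and 0.183), with 0.952 and 0.936 in the same checks. Neither passed with rho over the 126 relations. Elovl6 had r = 0.810 with Cidea and 0.800 with Elovl3 (rho = 0.881 and 0.810, exact permutation p = 0.0154 and 0.0193, adjusted p = 0.231 for both). The 18 were named by diet p or by a fixed choice, so the other list genes were outside this test. Of those, Mgll had r = 0.966 with Elovl3 and 0.959 with Cidea, and Hacd2 had 0.954 and 0.896. Others were unlike the pair, such as Acaca with -0.00796 and 0.0459. Far2 and Hsd17b12 were thus not singled out among the lipid genes. Of all genes, 0.385% had r over 0.9 with Elovl3 and 0.253% with Cidea.

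Far2 deviated by 10.8, 77.4, 23.4 and -51.7 millionths in collagen 1 to 4, against -27.7, -75.2, 17.4 and 25.6 millionths in control 1 to 4. Its highest mouse was collagen 2 and its lowest control 2, as for Cidea and Elovl3. Hsd17b12 deviated by 6.77, 8.97, 2.11 and -5.06 millionths in collagen 1 to 4, against -9.20, -8.28, -1.77 and 6.42 millionths in control 1 to 4.

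**Figure D4:**
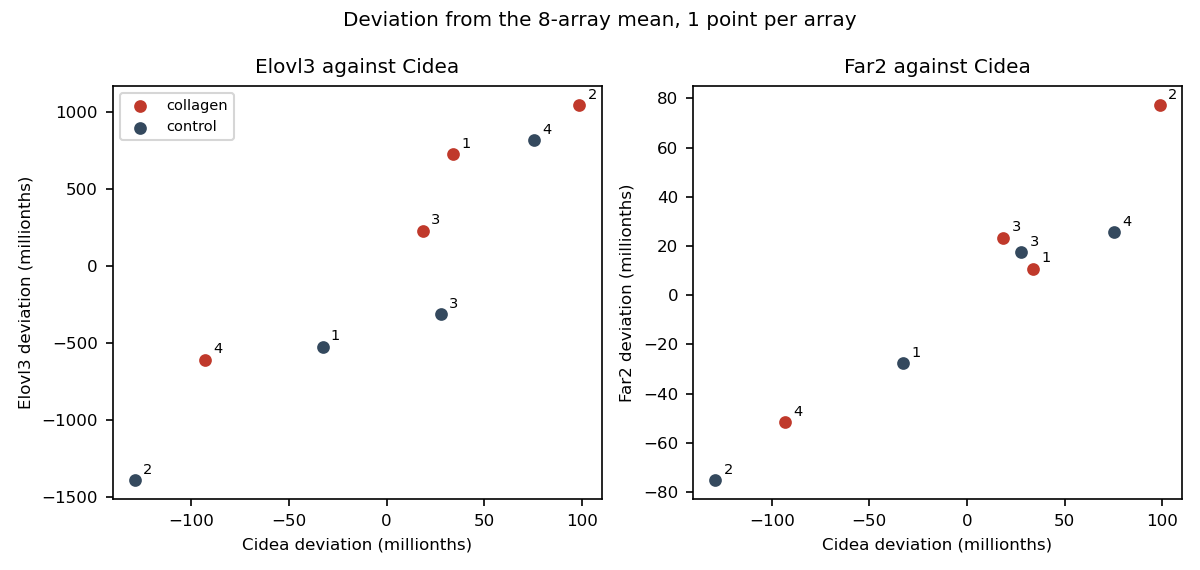
Deviation of Elovl3 (left) and Far2 (right) against that of Cidea, in millionths of a unit, 1 point per array numbered by replicate. In both panels control 2 lies at the lower left and collagen 2 at the upper right, and the diets intermix between them.

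Markers of the cells that whole skin can hold were set beside these values. Of 12 sebocyte markers 10 were measured, with 7 higher and 3 lower with collagen, and mean z values from -0.40 to 0.55 in collagen mice, against -0.62 to 0.35 in controls. Dermal fibroblast markers were lower in 6 of 6 (mean z from -1.48 to 0.69 in collagen mice, against -0.48 to 0.88 in controls). Immune cell markers were also lower in 6 of 6 (-1.37 to 0.94, against 0.20 to 0.58). Interfollicular keratinocyte markers were higher in 5 of 7, hair follicle keratinocyte markers in 1 of 8, skeletal muscle markers in 1 of 7, white adipocyte markers in 4 of 10 and brown adipocyte markers in 3 of 7. At an unadjusted p under 0.05 (limma; 3.62% of all genes) lay 2 of 6 immune markers (Cd207 and Itgax), 1 of 7 muscle markers (Casq1) and 1 of 7 brown adipocyte markers (Dio2), all lower with collagen and named after their values were seen, and 0 genes of the other marker lists. The scale has no zero, so no marker could be called absent.

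Among 56 relations between the 7 genes and 8 marker lists, 0 passed adjusted p 0.05 and 5 had an unadjusted exact permutation p under 0.05. The fibroblast list ran opposite to Elovl3 (r = -0.864, rho = -0.833, exact permutation p = 0.00543 and 0.0154; adjusted p = 0.186 and 0.287) and to Cidea (r = -0.734, rho = -0.738, exact permutation p = 0.0392 and 0.0458; adjusted p = 0.439 and 0.428), with r of -0.886 and -0.714 without the pair of arrays farthest from each gene's median. Immune markers had r = -0.762 and rho = -0.810 with Elovl3 (exact permutation p = 0.0282 and 0.0218; adjusted p = 0.394 and 0.305), and r was -0.761 without that pair. Muscle markers had r = -0.846 and rho = -0.833 with Mc5r (exact permutation p = 0.0068 and 0.0154; adjusted p = 0.186 and 0.287), and r was -0.502 without collagen 1 and control 1. White adipocyte markers had r = 0.855 and rho = 0.905 with Scd1 (exact permutation p = 0.00997 and 0.00456; adjusted p = 0.186 and 0.256), and r was 0.866 without control 1 and control 3. The part of these cell types in the members' values was not tested.

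Since Cidea and Elovl3 are also known from brown fat, that list was read on its own. The 7 brown adipocyte markers had r = 0.274 and rho = 0.476 with Cidea (exact permutation p = 0.512 and 0.243; adjusted p = 0.782 and 0.567) and r = 0.145 and rho = 0.405 with Elovl3 (exact permutation p = 0.732 and 0.327; adjusted p = 0.890 and 0.641), with r of 0.387 and 0.0442 without the farthest arrays. Elovl6 stands on this list and on that of fatty acid genes. White adipocyte markers had r = -0.232 with Cidea and -0.237 with Elovl3, with rho of -0.310 and -0.357 (exact permutation p = 0.573 and 0.566 for r, adjusted p = 0.782 for both). The sebocyte list, which holds Far2 too, had r = 0.616 and rho = 0.548 with Cidea (exact permutation p = 0.106 and 0.171; adjusted p = 0.543 and 0.563), and r was -0.155 without collagen 4 and control 2, so that relation rests on those arrays. With Mc5r it had r = 0.627 and rho = 0.762 (exact permutation p = 0.0979 and 0.0368; adjusted p = 0.543 and 0.412), and r was 0.919 without collagen 1 and control 1. For the sebocyte list and Elovl3 r was 0.542 and rho 0.595, and r fell to -0.0903 without collagen 2 and control 2. The list's r was 0.610 with Plin2, 0.261 with Scd3, -0.0519 with Mgst1 and -0.440 with Scd1. The rho values of these were 0.619, 0.238, -0.190 and -0.595.

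Among 18186 other genes, those with a pattern most like the mean z value of the 7 members were ranked by Pearson r over 8 arrays. The first 10 were Tmem135, a peroxisomal and mitochondrial protein, Lyrm4, a factor of iron-sulphur cluster assembly, Sod1, a superoxide dismutase, Aldh6a1, a mitochondrial aldehyde dehydrogenase, Slc5a4b, Col25a1, Dhrs7, a short-chain dehydrogenase, Acad11, an acyl-CoA dehydrogenase, Pex11a, which shapes peroxisomes, and Gm5148. Their r lay between 0.942 (Gm5148) and 0.981 (Tmem135), and their rho between 0.595 (Slc5a4b) and 0.929 (Tmem135). In all, 22 genes had r over 0.9 and 18 had r under -0.9, and the median was 0.0166.

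The members' mean z value used for this ranking was itself lowest in control 2 (-1.08), with collagen 4 next (-0.25). A low control 2 in the 10 genes thus follows from how they were picked and is no separate result. Control 2 was the lowest array in each of the 10, with z values from -2.27 (Col25a1) to -1.85 (Pex11a), while no other array fell below -0.868 in any of them. Without control 2 their r lay between 0.735 (Gm5148) and 0.950 (Tmem135), and without collagen 4 and control 2 between 0.590 (Col25a1) and 0.918 (Tmem135). Their likeness was mainly to Cidea, with r from 0.799 to 0.963, and Elovl3, with r from 0.746 to 0.930, and it was weak with Scd3, with r from -0.129 to 0.269. Tmem135 differed between the diets by 2.22e-05 ± 2.06e-05 (SE; limma adjusted p = 1, as for all 10).

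**Figure D5:**
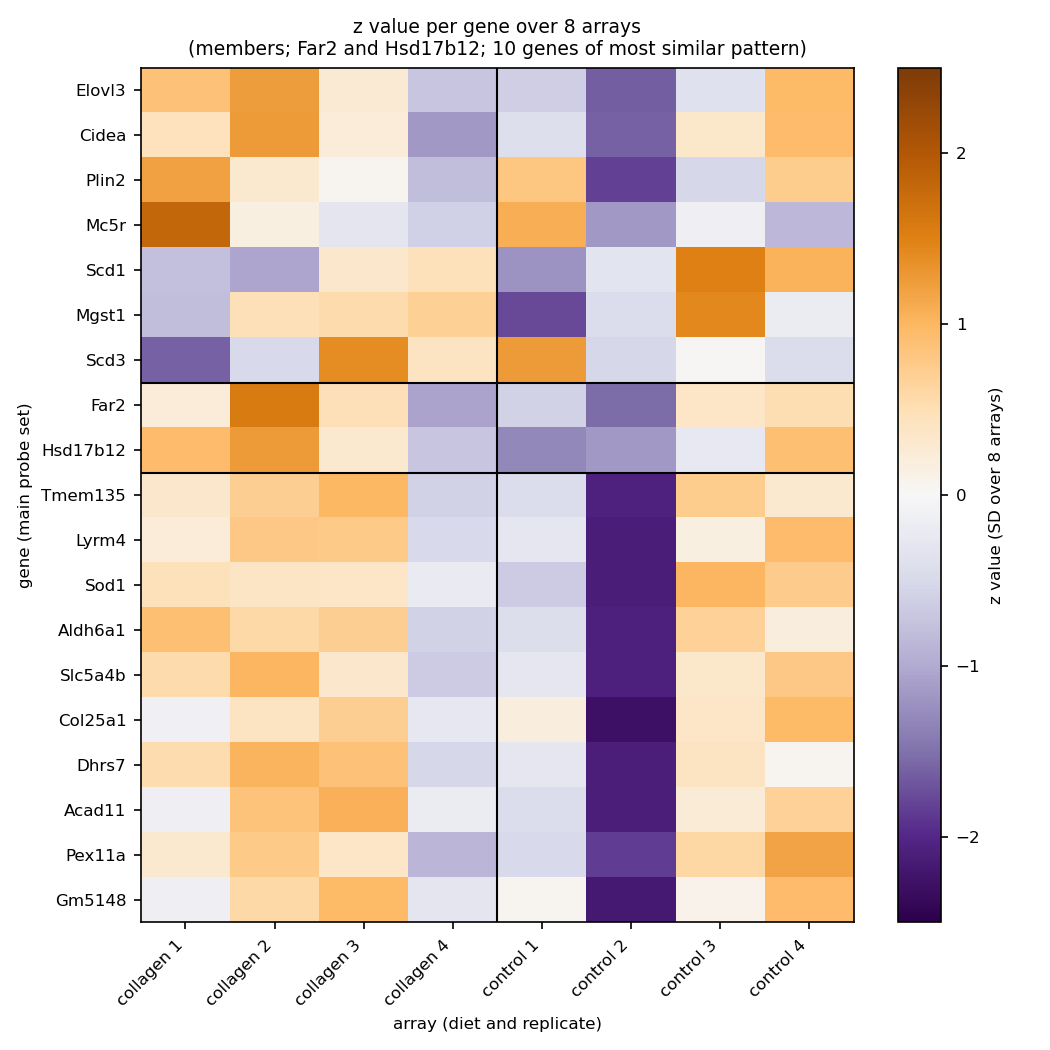
z value of each gene over the 8 arrays (SD units, on 1 colour scale), for the 7 members, for Far2 and Hsd17b12, and for the 10 genes of most similar pattern, with the collagen arrays left of the control arrays. Control 2 is the lowest column for most genes, with z of -1.64 for Elovl3, -1.62 for Cidea and -1.83 for Plin2, while Scd1, Mgst1 and Scd3 follow other arrays. The 10 genes were picked for likeness to the members' mean z value, which is lowest in control 2 (-1.08).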

How the data were processed

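The log2 values the authors deposited were 1 table of 45101 probe sets by 8 arrays. RNA labelled with biotin was hybridised to 1-colour arrays, per the labels' protocols. R 2.7.2 is named in the submitters' processing notes. How the values were summarised and normalized was not given in the sources used here. Their range, 6.56 to 14.46, was read as a log2 scale. Values were used as deposited, without the 64 control probe sets. The platform annotation gave 1 symbol for 34945 probe sets, several for 932 and none for 9160. Levels rest on 4 arrays per diet, and limma's p-values set each difference against the variation between arrays within a diet.

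All 45037 probe sets were fitted in R 4.3.3 by limma 3.58.1 (functions lmFit, eBayes; collagen minus control; two-sided; without covariates) and adjusted by Benjamini-Hochberg, after the fit was tested on simulated data. SE is limma's moderated SE. Single differences were also compared by exact permutation over 70 assignments, which cannot give a p below 0.0286. Correlations used exact permutation over 40320 pairings of arrays. A z value is a gene's deviation over its SD of 8 arrays, and a list's z is the mean over its genes. Figures were drawn with matplotlib 3.10.9.

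The members, lists and rules were chosen with earlier results of these data known. Named list genes are the 2 with the smallest p per pathway list plus Fasn, Scd2, Elovl6, Dgat2, Far2, Mc1r and Mgst3. Awat2, Soat2 and Plin1 were also listed and had no single-gene probe set. The genes of similar pattern are the 10 with the highest r. Alternatives were each array left out, quantile normalization, median centring, a filter on dim probe sets, 1 probe set per gene, the mean over a gene's probe sets, a trended robust prior, array weights and the replicate number as a block.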

Additional observations from a re-analysis of the deposited data

Results flagged for a closer look

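Arrays that stood apart from the others of their diet were looked for in 76 groups of 4 arrays (the member probe sets and the other named genes in each diet), with a gap over the range above Dixon's critical value for 4 samples, and 6 were found, where chance gives about 1 group in 20. Among the members, Mgst1 in collagen 1 lay below the other collagen mice with a gap of 0.848 of the range. Collagen 1 was also apart for Lpin1 (0.894) and Scd2 (0.843), lowest in both. Nceh1 was lowest in control 2 (0.894), Fasn highest in control 4 (0.84) and Sod1 lowest in collagen 4 (0.852).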

How the results depend on the processing

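No member probe set passed adjusted p 0.05 under any alternative run. Over all probe sets 0 passed, with 0 when each array was left out, and 2 after quantile normalization (Nrp1 and Cep97, named after their values were seen), which are no members. Of the 7 differences, those of Elovl3 and Mc5r kept their sign under all alternatives that gave a value (the filter on dim probe sets removed Mc5r). Scd1 turned with median centring (5.5e-05) and with the mean over its probe sets (8.26e-05). Scd3 turned with array weights (0.0463). With 1 array left out, the difference ranged from -0.0568 to 0.0310 for Scd3, from -8.92e-06 to 6.5e-05 for Cidea, from -6.36e-07 to 3.23e-06 for Plin2 and from -3.33e-08 to 1e-06 for Mgst1, so each turned at least at 1 array. Quantile normalization gave Scd1, Plin2 and Mgst1 1 value in all 8 arrays and Cidea only 2 values, so pairs with the first 3 had no r, and Elovl3 and Cidea had r = 0.707 (adjusted p = 0.375). The 1 pair past the threshold there was Scd3 and Mc5r. Far2 and Hsd17b12 also had 1 value each there, and 0 of the relations with list genes passed. Array medians spread over 8.19289 to 8.19322, more than the ranges of Scd1, Mc5r, Cidea, Plin2 and Mgst1. With median centring 15 pairs, 86 of 126 relations with list genes and 25 of 56 with marker lists passed, and 94.6% of all genes were higher with collagen, against 52.9% as deposited. Pairs past the threshold by r ranged from 0 to 2 with 1 array left out. Beside Elovl3 and Cidea, Elovl3 and Plin2 passed without control 1 (r = 0.934, exact permutation adjusted p = 0.0333). Mc5r and Plin2 passed without control 4 (r = 0.931, exact permutation adjusted p = 0.0354). Neither of these passed by r with any other array left out. The 2 relations with Far2 and Hsd17b12, with 1 array left out, had r from 0.948 to 0.983 and from 0.931 to 0.992. Their exact permutation adjusted p then ran from 0.05 to 0.213, and 0 of 126 relations passed. The smallest exact p that 7 arrays allow, 0.000198, was low enough to pass over 126 relations. Of the 56 relations with marker lists, 2 passed without collagen 4. Fatty acid genes higher with collagen numbered 5 of 19 after quantile normalization, against 14 as deposited, while 56.8% of all genes were higher there. Genes with 1 value in all arrays there, such as Hsd17b12, have no difference and do not count as higher. Tied and lower genes were not counted apart, so the 5 of 19 does not show a reversal. With median centring 7 of 8 cholesterol ester and 6 of 6 melanocortin genes were higher. As an alternative with the replicate block, the count was 0 of 45037 and all 7 differences kept their sign. Same-numbered arrays had correlations of 0.361, 0.0581, 0.200 and 0.0343 in their deviations. The best-matching control was control 1 for collagen 1 and control 3 for collagen 3, but control 3 for collagen 2 and control 2 for collagen 4. With the block 2801 probe sets had an unadjusted p under 0.05 (limma), against 1601 without it. Whether the numbers pair the arrays cannot be told from these values.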
